A study of Mus musculus with 4 samples.

Results

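The BAF complex, the mammalian SWI/SNF remodeller, uses ATP to slide and evict nucleosomes and thereby opens regulatory DNA to transcription factors. Its subunits come from small paralog families, and ES cells are known for an assembly built around Smarca4, Smarcc1, Arid1a, Actl6a and Ss18, which their self-renewal needs. The 10 genes described here are Smarca4, the ATPase; Smarcb1, Smarcc1, Smarcd1 and Smarce1, which form the core with it; Actl6a, an actin-related protein on the ATPase module; Arid1a and Dpf2, which belong to canonical BAF; Brd9, the bromodomain subunit of the non-canonical complex; and Ss18, shared by both. They were chosen by symbol, and all 10 of them were matched among the 46078 mouse gene rows of the count tables.

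The cells were wild-type mouse ES cells kept in 2i, which blocks MEK and GSK3 and holds cells naive. The labels name only 2i, and by the study's methods that medium also held the cytokine LIF. They were sorted by scatter through a gate for small cells, intended to hold cells leaving mitosis and in G1, or were left ungated. Following 6 h on laminin in either 2i or the differentiation medium N2B27 they were sorted again, cell by cell, for Smart-seq2, which counts reads over whole transcripts without molecular identifiers. The 4 groups, small or ungated in 2i or N2B27, were 1 sample of 24 cells each. With 1 sample per group there was no replicate check, so values are given per cell and per group with no test, and the 95% intervals given for shares reflect counting error alone. The 2 media lay on separate lanes and in separate count tables, and each table is called a plate here. Medium and plate in this sense cannot be told apart, while the gates lay on separate index rows of a plate.

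Filtering left 12 small and 22 ungated 2i cells, and 20 small and 21 ungated N2B27 cells, with 1364155 to 4844170 counts on genes per cell. Of the 12 small 2i cells left out, 9 held more spike-in than gene counts. A kept small 2i cell had 40.9% of its counts on ERCC spike-ins and a size factor of 0.133, so values of that group are also given without it. Another had 15712 genes detected. All 8 ES cell markers, Pou5f1, Sox2 and Nanog among them, had a mean of at least 20 normalized counts in 3 groups, and 7 of 8 in ungated N2B27 cells, where Klf4 was below. Of 8 fibroblast markers, Col1a1, Col3a1, Lum and Dcn had no count in any group, while Fn1 and Vim had a mean of at least 20 in all 4. The summed level of these markers had medians of 299, 553, 223 and 707 in small 2i, ungated 2i, small N2B27 and ungated N2B27 cells, lower in the small groups, and its part in the results was not tested. The libraries of a plate shared none of their index pairs, whereas the same gate on both plates used the same 24.

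For 3 of the 10 genes, reads were also counted on pseudogene copies of similar sequence. Smarce1 encodes the HMG-box subunit and lies at chr11:99209047-99231017 on the minus strand (GRCm38). Its coding sequence of 1233 bases differed at 13 bases from the processed pseudogene Gm8494 (chr5:146574888-146576120, plus strand), with an identical stretch of up to 234 bases. Over 87.1% of its coding length it differed at 18 bases from Smarce1-ps1 (chr8:41657593-41658669, minus strand), with an identical stretch of up to 405 bases. The 90 coding bases in which the copies differ most from Smarce1, positions 865 to 954 counted from the start codon, are shown because they tell the 3 genes apart. Capitals mark the 8 positions at which either copy differs.
Smarce1: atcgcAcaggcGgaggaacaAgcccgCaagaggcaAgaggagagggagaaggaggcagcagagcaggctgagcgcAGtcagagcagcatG
Gm8494: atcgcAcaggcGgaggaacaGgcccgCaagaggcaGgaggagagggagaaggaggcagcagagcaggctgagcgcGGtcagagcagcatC
Smarce1-ps1: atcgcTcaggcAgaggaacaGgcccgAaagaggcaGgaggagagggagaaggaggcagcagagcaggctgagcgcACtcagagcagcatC

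Over the 75 kept cells Gm8494 held 6089 counts and Smarce1-ps1 held 4203, against 6265 on Smarce1 itself. The copies together took 62.7% of the normalized counts on the 3 genes, with 59.9% to 65.0% in the single groups. They tracked Smarce1 from cell to cell, with a Spearman rho over 75 cells of 0.82 for Gm8494 and 0.80 for Smarce1-ps1, and Gm8494 was the gene whose pattern was most like that of Smarce1 among 6640 genes compared. Both had a count in 60 cells, the copies without Smarce1 in 6 and Smarce1 without the copies in 5. Whether those reads came from Smarce1 or from the copies was not tested. Another 2 processed pseudogenes on chromosome 13, Gm4811 and Gm6411, aligned to Smarce1 at 97.4% and 91.4% identity but had no row in the count tables. Nor had Gm7004, a copy of part of Smarcc1 at 91.7% identity.

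Actl6a (chr3:32706298-32726973, plus strand) had a shorter and more divergent copy, Gm13607 (chr2:68081791-68082329, plus strand), which aligned over 539 coding bases with 33 differences. The stretch with the most differences, coding positions 214 to 303, is shown for the contrast with Smarce1, with the 10 differing positions in capitals.
Actl6a: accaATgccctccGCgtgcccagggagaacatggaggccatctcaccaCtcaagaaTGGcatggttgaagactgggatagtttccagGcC
Gm13607: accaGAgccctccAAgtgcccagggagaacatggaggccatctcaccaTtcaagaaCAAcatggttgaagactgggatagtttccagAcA

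Gm13607 held 4384 counts against 71528 on Actl6a, or 5.72% of their normalized counts, in 66 cells. No cell had a count on Gm13607 without Actl6a. Its rho with Actl6a was 0.96, the highest of any gene. The Ss18 copy Gm1826 (chr2:87393483-87394644, plus strand) was 98.1% identical in its longest alignment and took 7.91% of the normalized counts, with a rho of 0.87. Adding the copies moved the mean of Smarce1 from 80.5 to 201 in small 2i cells, from 68.7 to 196 in ungated 2i cells, from 77.4 to 216 in small N2B27 cells and from 72.3 to 183 in ungated N2B27 cells. Smarce1 is therefore an uncertain level, whereas Actl6a and Ss18 changed little.

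**Figure D1:**
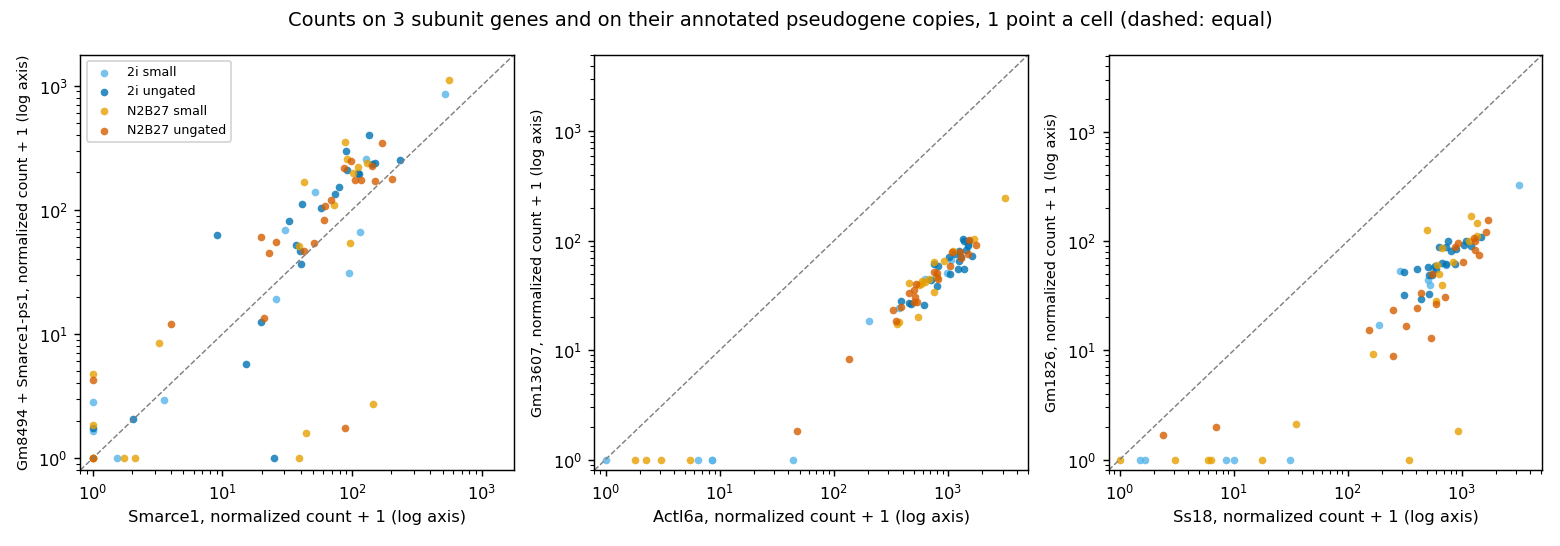
Normalized count + 1 of Smarce1, Actl6a and Ss18 (x axis, log) against that of their counted pseudogene copies (y axis, log), with 1 point for each of the 75 cells, coloured by group, and a dashed line of equality. Most cells with Smarce1 lie above the line, since the copies took 62.7% of the normalized counts, whereas the Actl6a and Ss18 copies run below it with 5.72% and 7.91%.

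The 10 genes were detected in most cells. The number with at least 1 count in a cell had a median of 8.5 in small 2i cells, 10 in ungated 2i cells, 8 in small N2B27 cells and 9 in ungated N2B27 cells. All 10 were found in 4 of 12, 14 of 22, 4 of 20 and 10 of 21 cells in the same order. After every cell was thinned to 1364155 counts the medians were 8, 10, 7.5 and 9.

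Their summed normalized count had a lowest, median and highest value of 188, 2001 and 7251 in small 2i cells and of 2499, 4061 and 5888 in ungated 2i cells. In N2B27 these were 960, 2855 and 4774 in small cells and 1581, 3541 and 5400 in ungated cells. The medians of the small groups lay below those of the ungated groups in both media, and the ranges overlapped. The small groups also had fewer genes detected, with medians of 7603 against 9515.5 in 2i and 7462.5 against 8200 in N2B27, and more spike-in, with 3.47% against 1.28% and 2.45% against 1.14%. The part of these differences in the gate comparisons was not tested.

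**Figure D2:**
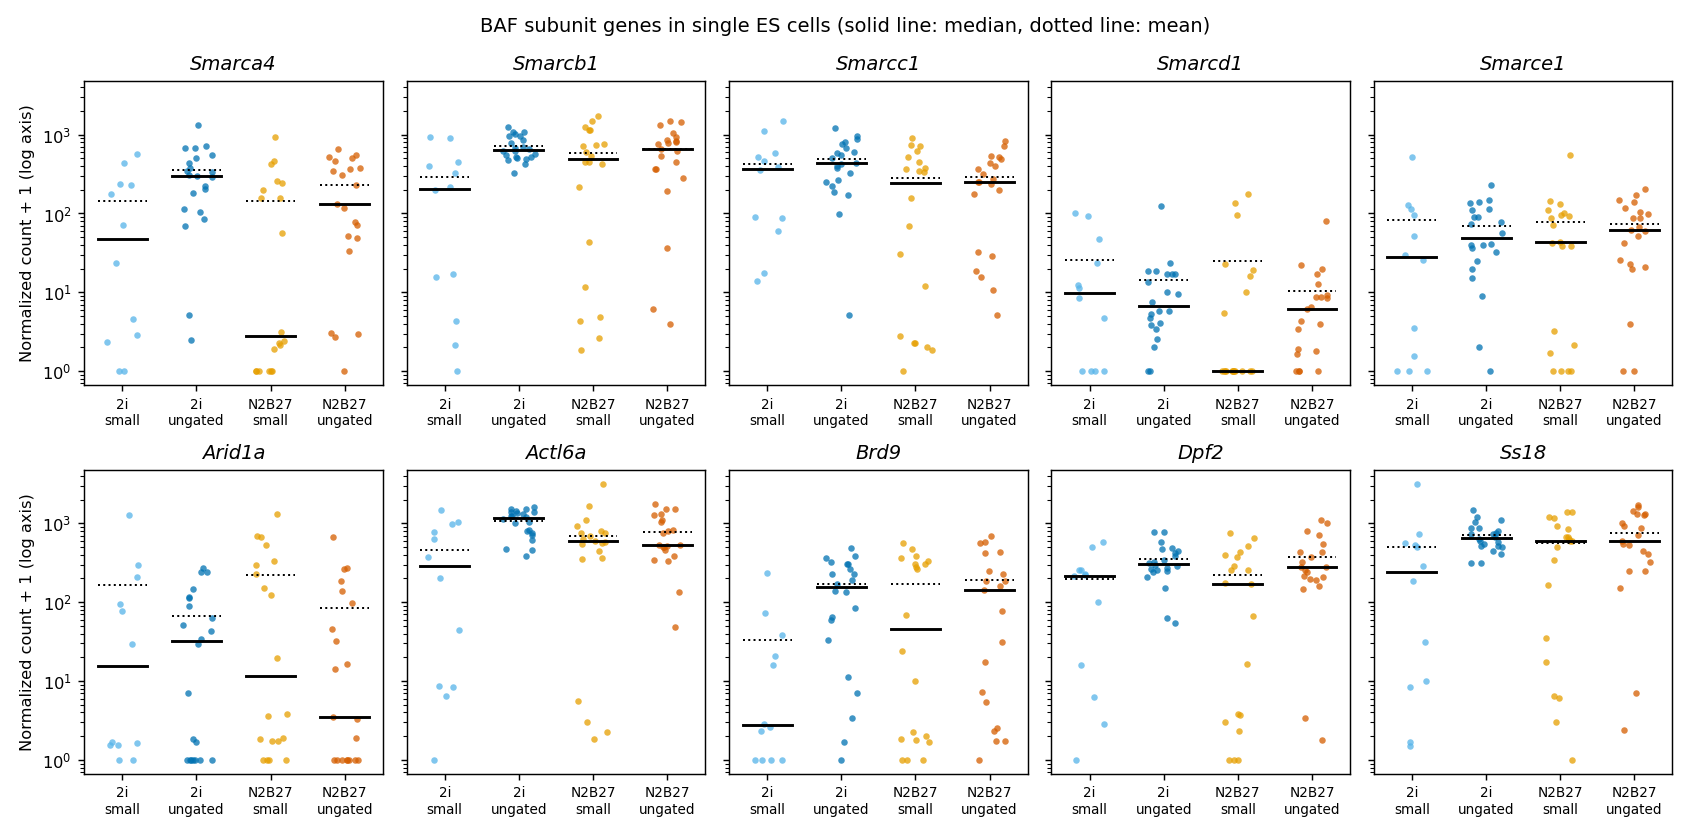
Normalized count + 1 (y axis, log) of each of the 10 genes in every kept cell (points), by medium and gate (x axis), with the median as a solid line and the mean as a dotted line. For Actl6a and Ss18 no ungated 2i cell lies below 300, whereas 4 of 12 small 2i cells lie below 10.

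Per kilobase of exon, Actl6a was the highest of the 10 genes in every group. The length is that of all annotated exons merged, which can exceed a transcript by unlike amounts. It was 7930 bases for Smarcb1 and 3886 for Actl6a, whose transcripts with the longest coding part have 1660 and 2010. The order of the genes thus depends on this length and was not computed with another. The mean normalized count per kb of Actl6a was 119, 274, 179 and 197 in small 2i, ungated 2i, small N2B27 and ungated N2B27 cells. That placed it at percentiles 90.1 to 95.7 of the detected genes. Smarcb1 and Ss18 came next in 3 groups, at 74.1 to 89.7 and 59.0 to 79.3 per kb, values that lay within the spread of cells of each other. In small 2i cells Smarcc1 was in that place, at 54.7 per kb beside 53.4 for Ss18.

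Smarca4, Dpf2 and Brd9 lay in the middle of the order, with 35.5 to 54.9, 53.5 to 57.8 and 24.6 to 27.1 per kb in the ungated groups. Smarce1, Arid1a and Smarcd1 were the lowest 3 in ungated and in small N2B27 cells. The last place fell to Smarcd1 at 2.37 to 5.89 per kb in 3 groups and to Brd9 at 4.57 in small 2i cells. About 12.7% of the exon bases of Smarcd1 and 11.6% of those of Actl6a are overlapped by genes on the opposite strand, Gm17349 and Gm34939 for the former and Mrpl47 for the latter. Reads in such bases cannot be told apart without strand, and the study does not state how its counting treated them.

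Each family with a paralog was led by the member listed for ES cells, except the Smarcd family. Smarca4 had a mean of 35.6 per kb over the 75 cells and Smarca2, the alternative ATPase, 0.29. Smarca4 was the higher of these in 64 cells, Smarca2 in 3, and neither had a count in 8. Smarca2 had no count in ungated 2i cells, and 1 cell gave 99.3% of its normalized counts in small N2B27 cells.

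Smarcc1 had 46.9 per kb and its paralog Smarcc2 2.38, with Smarcc1 higher in 69 cells and Smarcc2 in 5. Ss18 had 68.6 per kb against 0.96 for Ss18l1, which replaces it in neurons, and was higher in 73 of 75 cells. Arid1a had 11.1 per kb against 0.53 for Arid1b and was higher in 50 cells, with Arid1b higher in 9 and neither counted in 16. Actl6b, the neuronal counterpart of Actl6a, had no count in any of the 75 cells, which allows a share of up to 4% of cells with a read.

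Dpf2 had 45.7 per kb, Dpf1 4.49 and Dpf3 0.01, the other 2 being known from neurons and muscle. Most of the Dpf1 signal of the small 2i cells, 95.7% of its normalized counts there, came from the cell with the high spike-in share. Smarcd1 had 4.18 per kb and Smarcd2 16.0, and Smarcd2 was the higher in 36 cells against 28 for Smarcd1. The order of this family changed with the measure, since the median over the 75 cells was 1.21 per kb for Smarcd1 and 0.32 for Smarcd2. Smarcd3, known from heart and muscle, had 0.29 per kb.

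**Figure D3:**
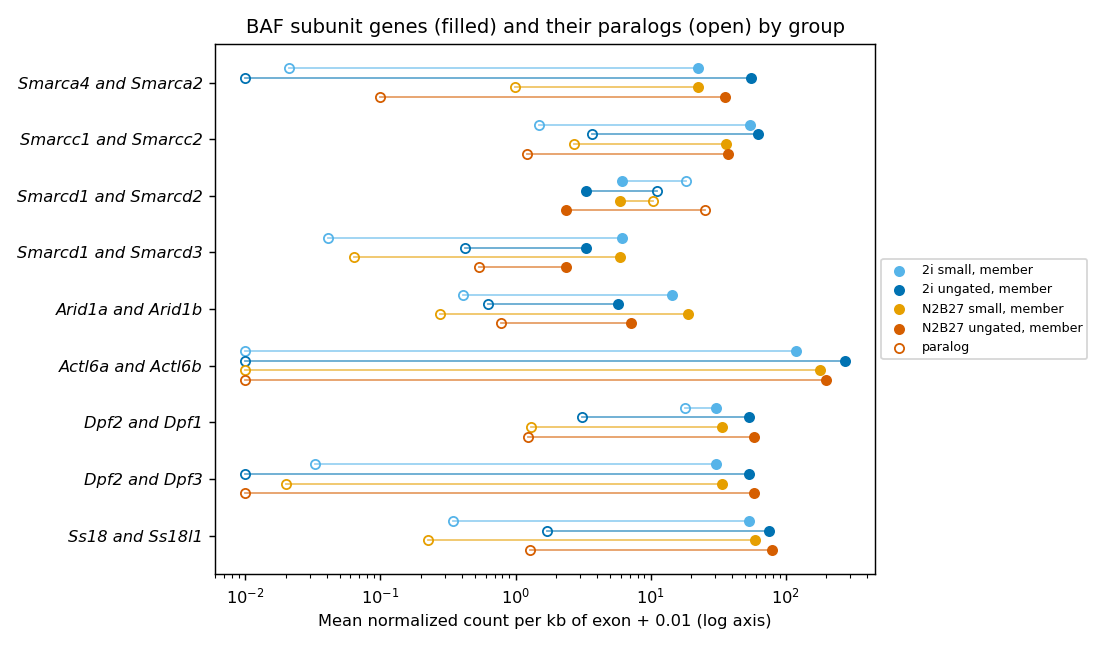
Mean normalized count per kb of exon + 0.01 (x axis, log) of each gene (filled) and its paralog (open) in the 4 groups (colours). In 8 of the 9 lines of pairs the listed gene lies to the right in all 4 groups, and the exception is Smarcd1, which lies to the left of Smarcd2. A paralog at the left edge had no count.

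The gate comparison asked whether cells early in the cycle differ from the whole population. In 2i, 4 of the 10 genes were at least 2-fold lower in small cells by mean (Smarca4, Smarcb1, Actl6a, Brd9), where 26% of 8541 genes with a mean of at least 20 were. A single gene, Arid1a, was at least 2-fold higher, where 17.6% of all genes were. The median log2 ratio of the 10 genes was -0.66, with order statistics across genes from -1.30 to 0.83, beside -0.31 for all genes. Among the 9 with a mean of at least 20, the floor used for all genes, it was -0.81. Without the cell of high spike-in share the medians of the 10 genes and of all genes were -0.53 and -0.27. With size factors from the spike-ins the median turned to 0.36, beside 0.78 for all genes.

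Smarca4 in small 2i cells had a lowest, median and highest normalized count of 0, 46.8 and 562, and in ungated 2i cells of 1.51, 302 and 1322. In N2B27 these values were 0, 1.77 and 935 in small cells and 0, 130 and 647 in ungated cells. Small cells were the lower in both media, although the ranges overlapped. The log2 ratio of the means, 144 against 355 in 2i and 145 against 230 in N2B27, was -1.30 and -0.66. Its sign was kept in 15 of 15 alternatives in both media, with spike-in scaling among them. Among 2i cells Smarca4 had a count in 10 of 12 from the small gate and 22 of 22 without a gate (shares of 83.3%, exact binomial interval 51.6% to 97.9%, against 100%, 84.6% to 100%), and among N2B27 cells in 14 of 20 and 20 of 21 (70.0%, 45.7% to 88.1%, against 95.2%, 76.2% to 99.9%).

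The small groups held more cells almost without Smarca4. With under 10 normalized counts of Smarca4 there were 5 of 12 small cells against 2 of 22 ungated cells under 2i, and 11 of 20 small cells against 4 of 21 ungated cells under N2B27. The other small N2B27 cells had at least 55.5 and a median of 243, beside a median of 307 in the other ungated N2B27 cells. The low small cells had medians of 5775 and 6819 genes detected in 2i and N2B27, against 8646 and 7911 in the other small cells. Their median spike-in shares were 11.1% and 3.79%, against 2.32% and 1.43%. The part of this in their low counts was not tested. No like share is given for all genes, here or for the genes below.

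Actl6a, the highest of the set per kb of exon, ranged from 0 to 1480 in small 2i cells with a median of 286. In ungated 2i cells it ranged from 383 to 1622 with a median of 1180. In N2B27 it ranged from 0.82 to 3152 in small cells with a median of 589, and from 47.0 to 1758 in ungated cells with a median of 534. In 2i the median of the small cells lay below the lowest ungated cell, whereas in N2B27 the medians were alike. The log2 ratio of the means was -1.20 in 2i, which turned to 0.45 with spike-in scaling, and -0.14 in N2B27.

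Again a few small cells carried almost no Actl6a, which no ungated cell did. Small cells under 10 normalized counts numbered 4 of 12 with 2i and 4 of 20 with N2B27, and ungated cells 0 of 22 and 0 of 21. The remaining small N2B27 cells had at least 355. Of these low cells 3 in each medium were assigned to G1 and 1 to S. They had medians of 5767 and 6339.5 genes detected against 8445.5 and 7760 in the other small cells, and of 16.9% and 5.17% spike-in against 2.31% and 2.34%, and the part of this in their low counts was not tested.

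Ss18 gave a like picture. It was under 10 normalized counts in 4 of 12 small cells and no ungated cell with 2i, and in 4 of 20 small cells and 2 of 21 ungated cells with N2B27. Of those small cells 3 in 2i and 2 in N2B27 were also under 10 for Actl6a. The mean was 503 in small and 711 in ungated 2i cells, but 52.9% of the small sum came from 1 cell at 3194, and the medians were 238 and 647. In N2B27 the means were 556 and 747 and the medians 598 and 598. The small cells low for Ss18 had medians of 5772 and 6105 genes detected in 2i and N2B27, against 8445.5 and 7760 in the others. Their median spike-in shares were 13.9% and 4.93%, against 2.31% and 2.34%, and the part of this was not tested.

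Smarcb1, the core subunit lost in rhabdoid tumours, ranged from 0 to 928 in small 2i cells with a median of 206, and from 328 to 1248 in ungated 2i cells with a median of 634. The log2 ratio of the means was -1.30, which turned to 0.38 with spike-in scaling and to 0.56 without a filter on cells. In N2B27 the ranges were 0.85 to 1729 and 3.02 to 1488, and the ratio was -0.16. Ungated 2i cells were the tightest group for this gene, with a coefficient of variation over cells of 0.35 against 1.17 in small 2i cells.

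Brd9, whose bromodomain binds acetylated lysine, had the largest ratio of the 10 genes in this comparison. Its normalized counts ranged from 0 to 230 in small 2i cells with a median of 1.76, and from 0 to 487 in ungated 2i cells with a median of 153. The mean of the small cells, 31.7, rested for 60.5% on 1 cell, and the mean of the ungated cells was 171. The log2 ratio of -2.39 was 0.04 with spike-in scaling, and -0.16 in N2B27, where means were 168 and 188.

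Dpf2, a PHD-finger subunit, had means of 198 and 348 in small and ungated 2i cells and of 217 and 376 in N2B27. Its ratios were -0.81 and -0.79, alike in both media and short of 2-fold, and spike-in scaling turned the ratio in 2i to 0.78. In N2B27, 7 of 20 small cells against 2 of 21 ungated cells were under 10 normalized counts. Smarcc1, the scaffold subunit, was by mean among the genes least different between gates, with ratios of -0.18 in 2i and -0.05 in N2B27. With other choices the 2i ratio ran from -0.82 to 0.56, its sign kept in 11 of 15 alternatives. The N2B27 ratio ran from -1.33 to 0.30, its sign kept in 8 of 15. Cells with fewer than 10 normalized counts of Smarcc1 made up 6 of the 20 small N2B27 cells, but 2 of the 21 without a gate. For 2i these numbers were 0 of 12 and 1 of 22. The small N2B27 cells low for Dpf2 and for Smarcc1 had medians of 6695 and 6581.5 genes detected, against 7859 and 7810.5 in the others. Their median spike-in shares were 3.79% and 4.93%, against 2.33% and 2.21%, and the part of this was not tested. Smarce1 had ratios of 0.23 and 0.10 by mean, and of 0.03 and 0.24 with its copies added. Its medians went the other way, with 27.1 in small and 48.1 in ungated 2i cells and 42.5 and 60.7 in N2B27. A single cell gave 54.2% of the small 2i sum, and without the highest cell of each group the 2i ratio was -0.59.

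In N2B27 none of the 10 genes was 2-fold lower in small cells, where 16.4% of 8704 genes were. The 2 genes that were 2-fold higher were Arid1a and Smarcd1, where 12.8% of all genes were. Smarcd1, with means of 23.7 and 9.54, lay below the mean of 20 that the background genes passed. The median of the 10 genes was -0.15, beside -0.10 for all genes. With means of log2 values per cell, which weigh the empty cells more than the highest ones, the median was -1.17, beside -0.76 for all genes.

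Arid1a, the DNA-binding subunit that defines canonical BAF, went the other way by mean. In small 2i cells its lowest, median and highest normalized counts were 0, 14.7 and 1272, and in ungated 2i cells 0, 31 and 270. In N2B27 they were 0, 10.7 and 1322 in small cells and 0, 2.46 and 666 in ungated cells. The highest cells of both small groups exceeded every ungated cell, while the medians did not share a direction. The means of 165 against 65.6 and of 218 against 82.5 gave log2 ratios of 1.32 and 1.39, and 64.3% of the small 2i sum came from 1 cell. The 2i ratio fell short of 2-fold at 0.20 without the highest cell of each group and at 0.13 with means of log2 values. The sign in N2B27 was kept in 15 of 15 alternatives, and the sign in 2i turned to -0.16 when S phase cells alone were compared. The share of cells under 10 was close to even between gates, with 6 of 12 and 10 of 22 cells in 2i and 10 of 20 and 11 of 21 in N2B27.

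Smarcd1 was low everywhere, with means of 24.5 and 13.3 in small and ungated 2i cells and of 23.7 and 9.54 in N2B27. It was found in 8 of 12, 20 of 22, 8 of 20 and 17 of 21 cells in the order small 2i, ungated 2i, small N2B27, ungated N2B27. The small groups thus had a lower share of cells with Smarcd1 and a higher mean, a difference with no test. A single cell gave 33.9% to 41.5% of the sum in each group. The N2B27 ratio of 1.23 turned to -0.35 with means of log2 values and to -4.28 without a filter on cells.

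**Figure D4:**
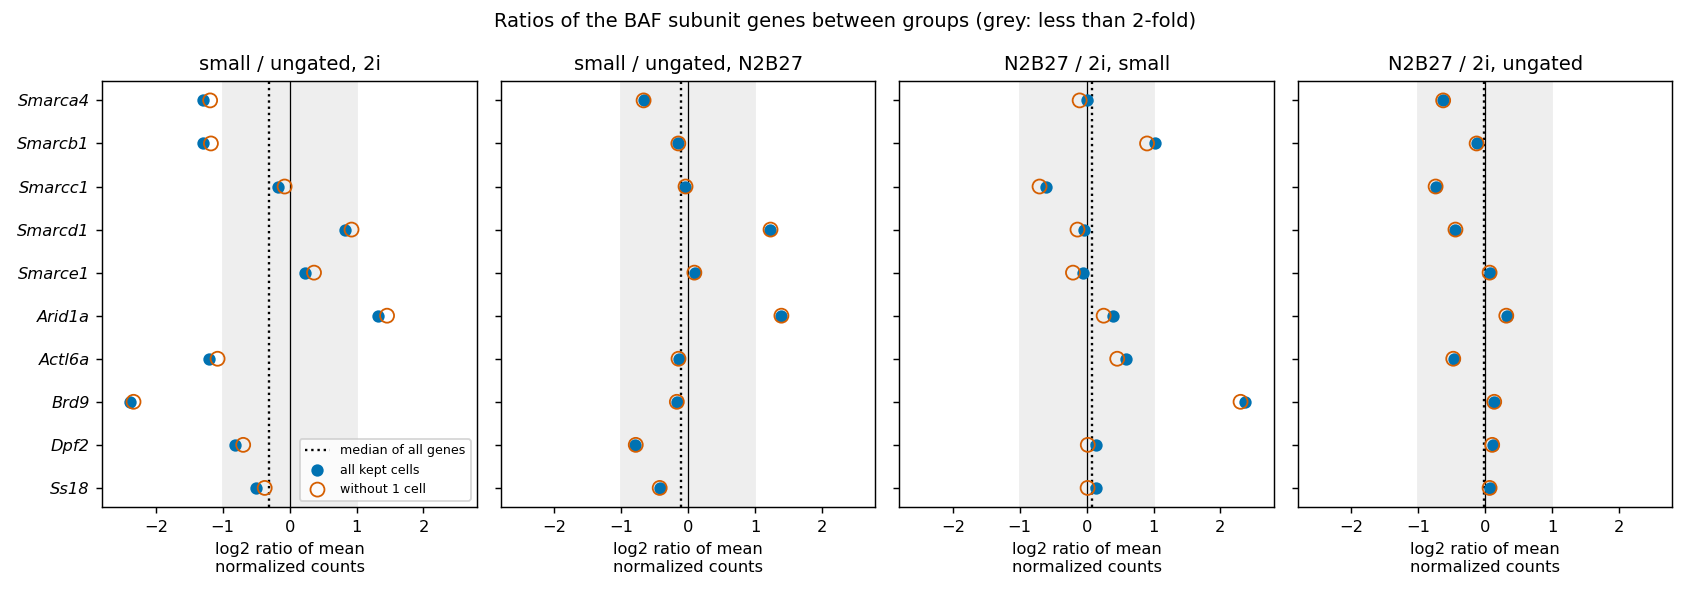
Log2 ratios of mean normalized counts (x axis) of the 10 genes (rows) in the 4 comparisons (panels), with all kept cells (filled) and without the small 2i cell of high spike-in share (open). Grey marks less than 2-fold and the dotted line the median of all genes. In 2i, Smarca4, Smarcb1, Actl6a and Brd9 lie left of the grey zone, although the last 3 turned with spike-in scaling, to 0.38, 0.45 and 0.04, and in ungated cells all 10 lie within it for N2B27 against 2i.

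The medium comparison asked what 6 h in N2B27, which lacks the inhibitors and LIF, did. In ungated cells none of the 10 genes was 2-fold higher or lower in N2B27 than in 2i, where 8.05% of 8682 genes were higher and 9.42% lower. The median ratio of the 10 genes was -0.02, beside -0.02 for all genes, and moved to between -0.68 and 0.39 with other choices. Among the 9 genes with a mean of at least 20, the floor used for all genes, it was 0.07.

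The largest ratio in ungated cells was that of Smarcc1, at -0.74. Its lowest, median and highest normalized counts were 4.19, 430 and 1226 in ungated 2i cells and 4.16, 250 and 840 in ungated N2B27 cells. In small cells they were 12.7, 369 and 1477 in 2i and 0, 244 and 916 in N2B27, with a ratio of -0.60. N2B27 cells were lower by mean and by median within both gates, with overlapping ranges, and the sign was kept in 15 of 15 alternatives in both. Smarca4 had a ratio of -0.62 in ungated cells and 0.01 in small cells, and Actl6a of -0.47 and 0.59.

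In small cells Smarcb1 and Brd9 were at least 2-fold higher in N2B27 than in 2i, where 22.1% of 8455 genes were, and none was 2-fold lower, where 19.2% were. Smarcb1 had a ratio of 1.02, which was 0.90 without the cell of high spike-in share and turned to -1.06 with spike-in scaling. Brd9 had a ratio of 2.37, and 2.30 without that cell, which turned to -0.54 with spike-in scaling. The small 2i group thus stood apart for these genes, since the 3 other groups had Brd9 means of 168 to 188 and Smarcb1 means of 587 to 711. The median of the 10 genes was 0.14, beside 0.08 for all genes, and without that cell 0.02 beside 0.07.

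Within the small gate the genes differed between cells assigned to G1 and to S. Phases were called with cyclone from 667 marker genes, which include Smarcb1 and Ss18 but not the other 8 genes. There were 6 G1, 5 S and 1 G2/M cells among small 2i cells and 6, 11 and 3 among small N2B27 cells, while ungated cells were mostly in G2/M, with 15 of 22 in 2i and 15 of 21 in N2B27. In 2i, 5 of the 8 genes that are no markers were at least 2-fold higher by mean in S than in G1 cells, where 33.4% of all genes were. In N2B27, 4 of the 8 were, where 32.2% were. Of the 5 in 2i, Brd9 had means of 22.8 in S and 6.12 in G1 cells. Averaged over both phases, Brd9 lay below the floor on the mean that the background genes passed. In the other direction, 2 of the 8 were at least 2-fold lower in S in 2i, Arid1a at -3.09 and Smarcd1 at -1.32, where 33.2% of all genes were, and none in N2B27, where 22% were.

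Actl6a had means of 106 in G1 and 826 in S cells of the small gate in 2i, and of 247 and 860 in N2B27. Smarca4 had 43.5 and 258 in 2i, and 27.1 and 98.9 in N2B27, with 550 in the 3 G2/M cells there. Brd9 had 6.12 and 22.8 in 2i, and 83.5 and 185 in N2B27. These 3 genes were higher in S by mean in both media. By median, Actl6a had 25.3 in G1 and 968 in S cells in 2i and 180 and 594 in N2B27, whereas Smarca4 in N2B27 had 1.21 and 2.12 and Brd9 in 2i 0.94 and 1.64. Those last medians were near 0 in both phases.

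Dpf2, at 84.5 and 353, and Smarcc1, at 215 and 700, were higher in S in 2i, with nearly level means in N2B27. Arid1a and Smarce1 had higher means in G1 in both media, with Arid1a at 301 in G1 and 34.6 in S cells in 2i and at 270 and 178 in N2B27. The medians gave another order for Smarce1, with 12.8 in G1 and 51.0 in S cells in 2i and 19.4 and 43.1 in N2B27, and for Arid1a in N2B27, with 1.3 and 18.7. Smarcd1 went opposite ways, with means of 35.7 in G1 and 13.7 in S cells in 2i and of 15.6 and 32.5 in N2B27, and a log2 ratio of 1.02 in the latter. The marker gene Ss18 had 178 and 894 in 2i and 133 and 833 in N2B27. The G1 cells had fewer genes detected, with medians of 6526 against 8245 in 2i and 6339.5 against 7758 in N2B27, and more spike-in, with 10.5% against 2.32% and 4.93% against 2.36%, and the part of this was not tested. Without the cell of high spike-in share, which was called G1, the 2i count stayed at 5 of 8 higher and went to 3 of 8 lower, Smarce1 being added at -1.13.

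**Figure D5:**
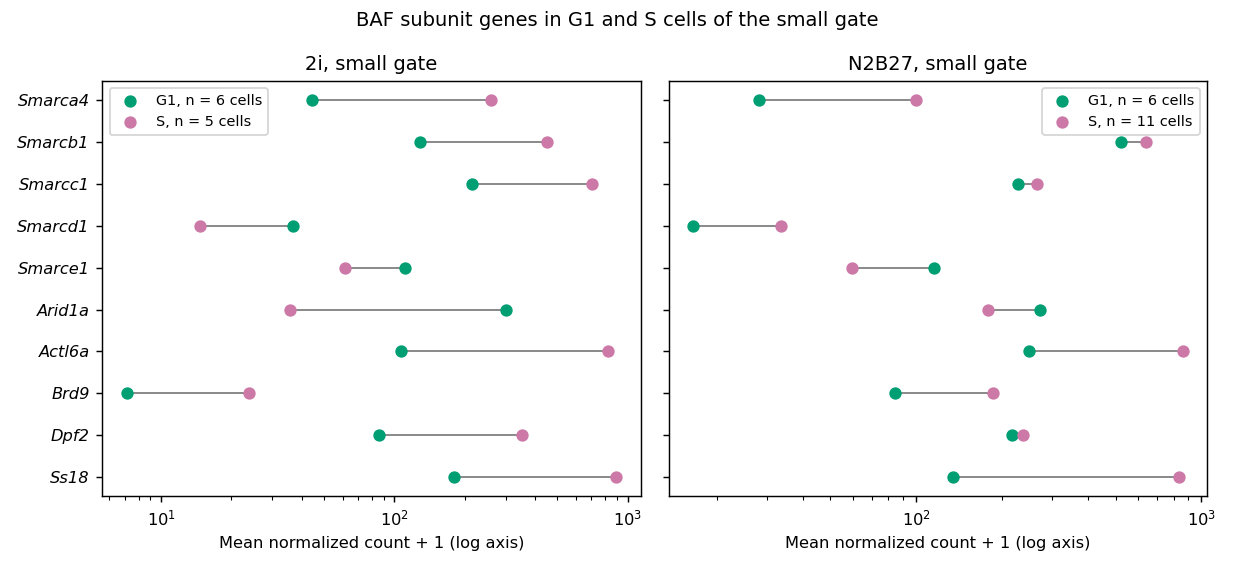
Mean normalized count + 1 (x axis, log) of the 10 genes (rows) in G1 and S cells of the small gate, in 2i (left) and N2B27 (right), joined by a line. Actl6a, Smarca4 and Brd9 lie further right in S in both panels, and Smarce1 and Arid1a further right in G1, by mean. Ss18 and Smarcb1 are among the phase markers.

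Rank correlations among the genes over cells were low. The Spearman rho over the 45 pairs had a median of 0.15 over the 75 cells, beside 0.06 for pairs of all 6640 genes compared. Within small 2i, ungated 2i, small N2B27 and ungated N2B27 cells it was 0.29, 0.09, 0.09 and 0.00. Pairs of all genes compared had 0.13, 0.00, 0.04 and 0.01 in the same order. The cells share depth and size factor, and in counts this sparse such values are no more than a description. Apart from the copies, the genes with the pattern most like Smarca4 over the 75 cells were Rnf220 (0.59), Spr (0.59), Stk38 (0.57), Rnf187 (0.57) and Med25 (0.55). The nearest gene was Kat2a for Smarcb1 (0.61), Ppil1 for Smarcc1 (0.55), Dcaf11 for Dpf2 (0.52), Lsm14a for Smarcd1 (0.49), Gm5900 for Brd9 (0.49) and Zc3h7a for Arid1a (0.47). Within single groups some of these fell away. In ungated 2i cells Stk38 had -0.23 and Gm5900 -0.15, and in small 2i cells Zc3h7a had -0.01 and Dcaf11 0.04. The other genes named had positive values in every group, with Rnf220 at 0.50 to 0.56.

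Other assemblies were described by fixed lists. Of the 4 PBAF subunits, which replace Arid1a by Arid2 and add Pbrm1, none was 2-fold lower and 1 higher in small than in ungated 2i cells, where 26% and 17.6% of all genes were. That gene was Phf10, whose mean of 1296 rested for 98.9% on the cell of high spike-in share, and without that cell its ratio was 0.24 and 0 of 4 were higher. Arid2 had means of 8.95, 18.4, 92.6 and 52.3 in small 2i, ungated 2i, small N2B27 and ungated N2B27 cells, so that its N2B27 to 2i ratio was 3.24 in small and 1.46 in ungated cells. Arid2 was counted in 2 of 12, 13 of 22, 11 of 20 and 9 of 21 cells. Pbrm1 was higher in small than in ungated N2B27 cells by 1.28 on the log2 scale, with 52.3% of the small sum in 1 cell, and Brd7 lower by a log2 ratio of -1.46.

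Smarcd2 had a ratio of -1.26 between gates in N2B27 and of 1.16 between media in ungated cells, the comparison in which its paralog Smarcd1 had -0.44. Of the accessory subunits Bcl7b, a small partner of the ATPase module, was lower in small 2i cells at a log2 ratio of -1.30, and higher in N2B27 than in 2i small cells at 1.06. Without the cell of high spike-in share these were -1.18 and 0.94, the latter short of 2-fold. Actb, the actin of the ATPase module and of the cytoskeleton, had 2.13 in small against ungated 2i cells, and 1.24 without the cell of high spike-in share. The 12 genes of NuRD, another remodeller, had medians of -0.25, -0.18, 0.77 and -0.02 in the gate comparisons in 2i and N2B27 and the medium comparisons in small and ungated cells, beside -0.66, -0.15, 0.14 and -0.02 for the 10 BAF genes. The 8 genes of PRC2, the H3K27 methyltransferase complex, had 0.43, 0.02, -0.64 and 0.07. Without the cell of high spike-in share the gate comparison in 2i gave -0.64 for NuRD and 0.36 for PRC2, beside -0.53 for BAF, so that the order of NuRD and BAF turned. Between media in small cells it then gave 0.69 for NuRD and -0.40 for PRC2, beside 0.02.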

How the data were processed

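The authors trimmed the reads with Trim Galore 0.4.4, aligned them with GSNAP to GRCm38/mm10, annotated genes with Ensembl release 81 and counted with HTSeq, and they deposited raw counts per gene and cell, not normalized. Over all cells 72.4% of the counts lay on genes and 3.85% on ERCC spike-ins, and 23.8% on 12 rows that name no gene, which were left out. Positions and exon lengths came from GENCODE M21, a later release on the same build, which matched 45143 of 46078 genes.

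Cells were matched to samples through the authors' list of runs. They were filtered per plate at 3 median absolute deviations with scater 1.30.1 (lower limits of 307960 counts and 4435 genes in 2i and of 1250614 counts and 5316 genes in N2B27, and an upper limit on mitochondrial counts), which kept 75 of 96. No doublet caller was run on these singly sorted cells. Size factors came from DESeq2 1.42.0, phases from scran 1.30.0, and the rest from Python 3.11.15 with numpy 2.4.6, scipy 1.17.1 and pandas 2.3.3. Ratios are log2 ratios of mean normalized counts with a pseudocount of 1, which understates changes of low genes, and a gene is counted as changed from 2-fold. Background shares use genes with a mean of at least 20. The ratio step was tested on simulated counts with Poisson spread alone. The real cells varied more, so this checked the computation and not how stable the ratios are. Copies were sought with blastn 2.17.0 among annotated transcripts at 90% identity over 300 bases. The fold for each listed gene was read beside all genes, and no p-value was computed, since each group is 1 sample. The adjusted p from DESeq2 that the study's methods name was therefore not computed.

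The genes named are the 10 members, their paralogs, other subunits at least 2-fold apart with a mean of at least 20, the 5 genes most like Smarca4 and the gene most like each other member. The members and lists were chosen with earlier results of these data known. The groups of cells under 10 normalized counts, the G1 to S comparison and the sum with copies were added after values were seen. Alternatives covered the filter on cells, the size factors, the summary over cells, the pseudocount, depth and phase.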

Additional observations from a re-analysis of the deposited data

How the results depend on the processing

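The median log2 ratio of the 10 genes between small and ungated 2i cells was -2.55 with means of log2 values. In N2B27 it was -0.72 with spike-in size factors and -1.17 with means of log2 values. For N2B27 against 2i it was -0.25 without a filter on cells and -0.94 with spike-in size factors in small cells, and 0.17 with fixed limits on cells, 0.39 with poscounts size factors and -0.68 with means of log2 values in ungated cells. Spike-in scaling moved the median of all genes too, to 0.78, -0.81, -1.53 and 0.05 in the 4 comparisons, and the cause was not tested. Adding the copies, chosen after seeing the data, left all 4 medians within the spread across the 10 genes. Only Smarce1, Actl6a and Ss18 can change with it, and the spread runs from rank 2 to rank 9 of the 10 values. The medians could therefore hardly leave it, and this is no check of them.

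Of 9 calls of at least 2-fold among the 10 genes, 7 turned sign in at least 1 alternative, and 2, Smarca4 in 2i and Arid1a in N2B27 between gates, kept it in all 15. Without a filter on cells Smarcb1 was 0.56 in small against ungated 2i cells and -0.91 in N2B27 against 2i small cells, and Smarcd1 -4.28 in small against ungated N2B27 cells, while between gates in 2i Smarce1 went from 0.23 to -3.92 and Arid1a from 1.32 to 5.38. Fixed limits gave Smarcd1 -4.17 and means of log2 values -0.35. Spike-in scaling gave 0.38 for Smarcb1, 0.45 for Actl6a and 0.041 for Brd9 in 2i, and -1.06 for Smarcb1 and -0.54 for Brd9 between media in small cells. Arid1a was -0.16 in 2i among S phase cells alone. The number of the 10 genes past 2-fold ranged over 15 alternatives from 0 to 3 higher and 0 to 7 lower between gates in 2i, 0 to 2 and 0 to 6 in N2B27, 0 to 4 and 0 to 5 between media in small cells, and 0 to 2 in each direction in ungated cells. Without a filter on low values, 27% of all genes were past 2-fold between media in ungated cells, against 17.5% with it.

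No paired analysis was possible because each group is 1 sample. With 12 small 2i cells and reads counted without molecular identifiers, the values of low genes such as Smarcd1 rest on a few cells.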
